A study of Mus musculus with 37 samples.

Results

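The 37 mitochondrially encoded genes are the genes whose symbol starts with mt- in a deposited table of 56351 genes. They are 13 mRNA genes, 2 rRNA genes and 22 tRNA genes, all on chromosome M. All 37 are described here, with the counts behind the weak ones. RNA bound to tagged ribosomes was sequenced at 12 mouse sites, which are 11 lymph nodes and the spleen. Each site has 3 libraries, and a jejunal node also gave 1 library pulled down with an isotype control antibody. RiboTag mice carry an allele of Rpl22, a protein of the large cytosolic ribosomal subunit, that gains an HA tag once Cre has acted, so that ribosomes of the Cre-bearing cells can be pulled down. Every group, the isotype control included, had the genotype CD169 Cre KI/KI, Rpl22HA homozygous. The labels call the cells cd169 macrophages and give no age, sex, animal number or pooling, so p-values measure only the spread between these libraries.

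Mitochondrial DNA of mammals is copied into long transcripts from both strands, and the tRNAs that stand between the other genes mark where these are cut. The 13 mRNAs encode subunits of complexes I, III, IV and V of the respiratory chain, and the 2 rRNAs form the mitochondrial ribosome together with proteins imported from the cytosol. Mitochondrial mRNAs are translated inside the organelle on that ribosome, which does not contain Rpl22, whereas the nuclear genes of the same complexes are translated on cytosolic ribosomes. Most mitochondrial mRNAs have short poly(A) tails, and the libraries were made from polyadenylated RNA.

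Total estimated counts ran from 221911 to 69139450 per library, and 14 libraries held fewer than 1000000. At 7 sites (spleen and the mediastinal, deep cervical, super cervical, inguinal, ceco-colonic and ileal nodes) all 3 libraries were above 1000000. These 21 libraries are called deep. The 12 libraries of the duodenal, liver, celiac and iliac nodes are called shallow. In them 3 features, Gm19220, Rn18s-rs5 and Lars2, took up to 85.6% of the counts. They are called the 3 ribosomal features as a set, although Lars2 is a nuclear gene for a mitochondrial tRNA synthetase. Siglec1, the gene for CD169, was at 0 in 20 of 37 libraries and reached 3.33 CPM (counts per 1000000 of the library total). The 6 macrophage markers checked, Siglec1 among them, summed to between 7.72 and 8154 CPM. Most of that sum was Marco, at 7.72 to 7820 CPM. Cd5l reached 253 CPM, Csf1r 139, Cd68 64.5 and Adgre1 20.4, and each was at 0 in at least 5 libraries. In bulk libraries fewer cells of a type and less RNA per cell cannot be told apart.

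Sequences explain why some members cannot be measured alone. A block of nuclear DNA on the minus strand of chromosome 1 (GRCm38 positions 24611535 to 24616197 in the GENCODE M21 annotation, which may not be the build used for counting) holds copies of 7 of the mRNA genes. Over its 345 bases the copy Gm28438 differs from mt-Nd3, a complex I subunit, by 1 base. It is the substitution T3C, with positions counted from 1 at the 5′ end of the gene, and is shown in capitals in the first 23 bases of both.
mt-Nd3: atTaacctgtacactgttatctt
Gm28438: atCaacctgtacactgttatctt
The copies of mt-Co2, mt-Atp6, mt-Co3, mt-Nd4 and mt-Nd4l (Gm28661, Atp6-ps, Gm28437, Gm28439 and Gm10222) are identical to the gene over every aligned base. Gm29216 covers 483 of the 1545 bases of mt-Co1 with 1 mismatch.

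Members also overlap each other. The genes mt-Atp8 and mt-Atp6, both for complex V subunits, share 43 bases of the plus strand (chrM:7927-7969). The start codon of mt-Atp6 and the stop of mt-Atp8 are in capitals.
mt-Atp8 and mt-Atp6 overlap: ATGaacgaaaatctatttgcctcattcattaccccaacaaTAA
The tRNA gene mt-Ts1 (chrM:6870-6938) is read from the minus strand, and its last 3 bases, in capitals, are antisense to the end of mt-Co1.
mt-Ts1: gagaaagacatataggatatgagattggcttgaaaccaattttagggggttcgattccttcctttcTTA
The last 14 bases of mt-Nd5, in capitals in its final 40 bases (chrM:13526-13565), are antisense to mt-Nd6, the only mRNA gene on the minus strand.
mt-Nd5 end: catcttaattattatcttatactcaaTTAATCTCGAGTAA
These overlaps are those of the annotated genes, and how far the transcripts run was not examined. The labels do not state whether counting used strand, so reads from both members of an antisense pair cannot be told apart.

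Mitochondrially encoded RNA was a small share of every library. It made up 0.0194% to 0.349% of the counts of the 21 deep libraries (median 0.0713%) and 0.0334% to 0.239% of the 12 shallow ones (median 0.0667%). With the 3 ribosomal features left out of the totals, the shares were 0.021% to 0.39% (median 0.0811%) and 0.205% to 0.929% (median 0.3%), so the medians of both depths were near each other only on plain totals. What it consisted of differed. Of the mitochondrial counts, the 2 rRNAs took 9.11% to 52.3% in the deep libraries (median 24%) and 46.4% to 96.9% in the shallow ones (median 85.1%). The 13 mRNAs together took 0.0115% to 0.258% of a deep library and 0.00332% to 0.0602% of a shallow one.

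Among deep sites the share was highest in the deep cervical node, with 0.349%, 0.125% and 0.246% in replicates 1 to 3 (0.24% ± 0.112, SD, n = 3). The mediastinal libraries were the closest to each other, at 0.131%, 0.129% and 0.146% (0.136% ± 0.00914, SD, n = 3). In the super cervical node the values were 0.0562%, 0.0415% and 0.22% (0.106% ± 0.0992, SD, n = 3). The super cervical value thus rested on replicate 3, and the same held for the next pair of sites. Ceco-colonic libraries held 0.0194%, 0.0383% and 0.188% (0.0817% ± 0.0921, SD, n = 3). Ileal libraries held 0.0249%, 0.0259% and 0.131% (0.0606% ± 0.061, SD, n = 3). The 3 inguinal libraries held 0.0713%, 0.0469% and 0.0835% (0.0672% ± 0.0186, SD, n = 3), and those of spleen 0.0606%, 0.0703% and 0.0428% (0.0579% ± 0.0139, SD, n = 3). Each site overlapped its neighbour in this order: the lowest deep cervical value, 0.125%, lay below all 3 mediastinal values, and the highest super cervical value, 0.22%, above them. With the 3 ribosomal features left out of the totals, the spleen mean (0.0768%) lay above the inguinal (0.0729%) and ileal (0.0671%) means, and the order was otherwise the same.

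Sums of marker genes of other tissues also varied by site. In deep cervical libraries 7 striated muscle genes summed to 124.5 to 6840 CPM, with the highest sum in replicate 1, and in the other deep libraries they did not exceed 38.4 CPM. The sum of 5 brown fat genes was 745 to 3477 CPM in deep cervical and 839 to 1282 CPM in mediastinal libraries, and at most 40.4 CPM in the other deep ones. Both tissues are rich in mitochondria. The sum of 4 thyroid and parathyroid genes was 6703 to 29848 CPM in deep cervical libraries and at most 61.3 CPM in the other deep ones. The sum of 5 erythroid genes was 6948 to 7609 CPM in deep cervical, 1726 to 1949 CPM in mediastinal and 6096 to 46936 CPM in spleen libraries. The part of these tissues in the mitochondrial share was not tested.

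At the shallow sites the mean share was 0.166% ± 0.0204 in iliac, 0.108% ± 0.113 in liver, 0.104% ± 0.109 in duodenal and 0.0547% ± 0.0262 in celiac libraries (SD, n = 3 each). This order changed with the 3 ribosomal features left out, to 0.456% ± 0.394 in duodenal, 0.452% ± 0.413 in liver, 0.337% ± 0.0275 in iliac and 0.319% ± 0.128 in celiac libraries (SD, n = 3 each). The high values among them came from rRNA: liver replicate 2 held 0.232% rRNA and 0.0074% mRNA, and duodenal replicate 3 held 0.218% rRNA and 0.0114% mRNA. Jejunal libraries, with totals of 495246, 1950752 and 256282, held 0.0241%, 0.0458% and 0.183%, of which mRNA was 0.0133%, 0.0189% and 0.018%. On plain totals jejunal replicate 3 was therefore high in rRNA alone. With the 3 ribosomal features left out, its mRNA share was 0.0454%, against 0.025% and 0.0223% in replicates 1 and 2. On that scale duodenal replicate 3 held 0.0453% mRNA, against 0.0224% and 0.0235% in replicates 1 and 2.

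**Figure D1:**
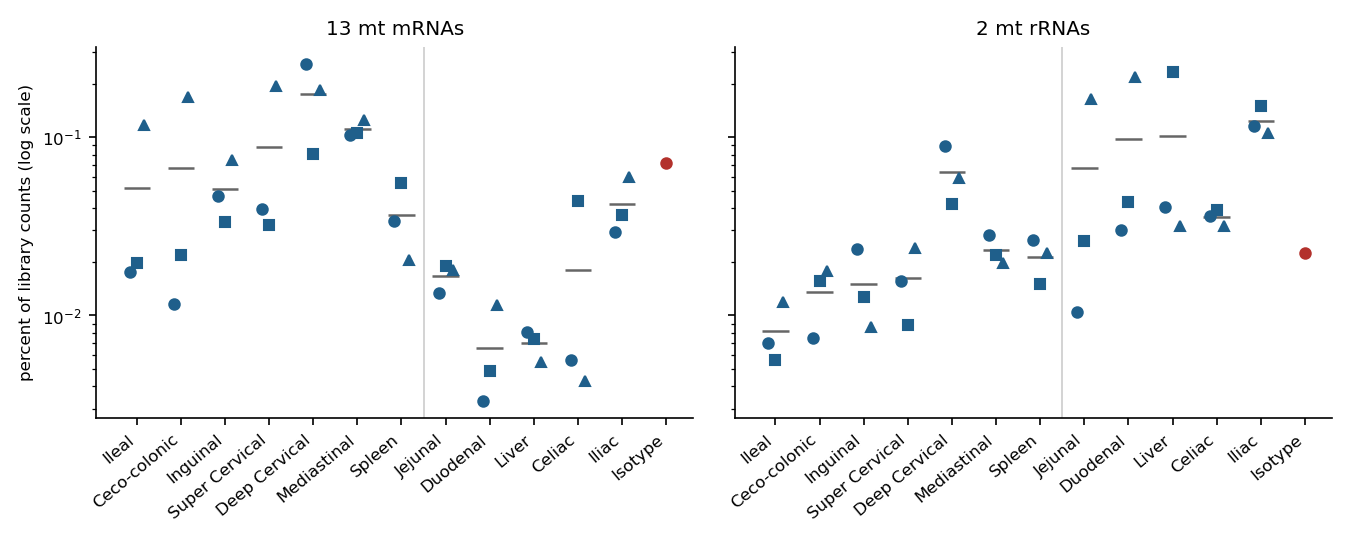
Percent of all counts in each library taken by the 13 mitochondrial mRNAs (left) and the 2 mitochondrial rRNAs (right), on log axes; circles, squares and triangles are replicates 1, 2 and 3, bars are site means, the red point is the isotype control and the vertical line separates the 7 deep sites from the rest. The mRNA share reaches 0.258% in deep cervical replicate 1 and falls to 0.00332% in duodenal replicate 1, whereas the rRNA share of all 12 shallow libraries is above the median of the deep ones (0.0178%).

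The nuclear copies took counts in a way that differed with depth. Gm29216 held 55.8% of the counts shared with mt-Co1 over all libraries, although it covers the smaller part of that gene. For the pair of mt-Atp6 and Atp6-ps, the gene held 2.15 counts and the copy 145.8 in the 14 libraries under 1000000 counts, against 25629.6 and 27.5 in all the others. mt-Nd3 was under 1 count while its copy was over 1 in 12 libraries. In the 3 ceco-colonic libraries mt-Nd3 was listed near 0 and Gm28438 held 8.28, 9.56 and 36.9 counts. A level of 0 for mt-Nd3, mt-Atp6, mt-Nd4l or, in shallow libraries, mt-Co2 is therefore no evidence that the RNA was missing, and for these genes the sum with the copy is given where it matters.

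Levels per length ordered the members as follows in the deep libraries, as medians of CPM per kilobase of gene. Complex IV led, with mt-Co2 at 149.5 and mt-Co3 at 113.4, the core subunit genes of cytochrome c oxidase. mt-Co1, the third core subunit, was at 26.3 alone and at 48.1 with its copy. Of the rRNAs, mt-Rnr2 (large subunit, 16S) stood at 80.8 and mt-Rnr1 (small subunit, 12S) at 52.2. The tRNA gene mt-Ts1 had a median of 83.2, between mt-Co3 and mt-Rnr2. It is only 69 bases long and the strand of counting is not stated, so its place in the order is uncertain.

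The complex V gene mt-Atp6 had a median of 67.8 CPM per kilobase, and its overlapping partner mt-Atp8 only 8.88, although both are translated from a shared transcript. mt-Cytb, the mitochondrial subunit of complex III, was at 29.1. In complex I the order was mt-Nd6 (59), mt-Nd1 (57.2), mt-Nd2 (34.6), mt-Nd4 (33), mt-Nd3 (16.3), mt-Nd5 (7.46) and mt-Nd4l (3.9). These levels ranged widely: mt-Co2 from 29.2 to 935 and mt-Nd5 from 2.45 to 115.7 CPM per kilobase, so the ranges of neighbours in the order overlapped. Reads of mt-Nd4l, which shares 7 bases with mt-Nd4 on the same transcript, and those of mt-Atp8 can be assigned to a partner by an estimating counter. The place of mt-Nd6 in the order is uncertain too, because it is antisense to mt-Nd5 and the strand of counting is not stated.

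**Figure D2:**
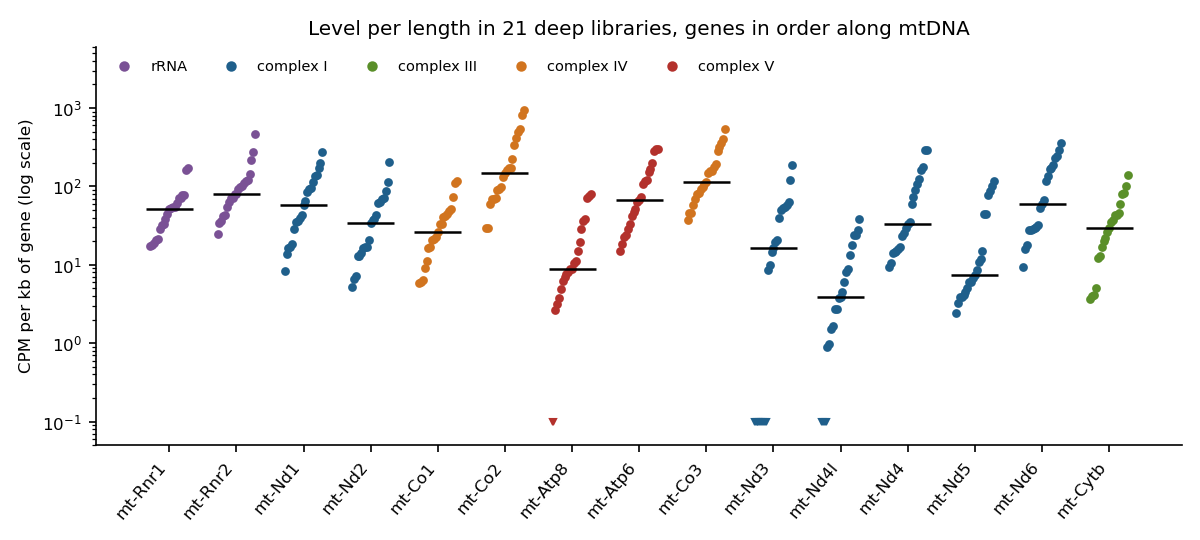
Level of each mitochondrial rRNA and mRNA gene per kilobase of its length in 21 deep libraries, sorted within each gene, on a log axis; black bars are medians, colours mark the complex, and downward triangles at 0.1 stand for values under 0.1. mt-Co2 has the highest median (149.5 CPM per kilobase) and mt-Nd4l the lowest (3.9), and mt-Nd3, mt-Atp8 and mt-Nd4l are the genes with libraries near 0.

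By library, mt-Co3 was at 421.6, 123.4 and 279.5 CPM in the deep cervical node and 123.5, 153.4 and 138.1 in the mediastinal node. It was at 36.1, 36 and 224.1 in the ileal node, 28.9, 46 and 313.2 in the ceco-colonic node and 54.3, 88.9 and 64.6 in spleen. The gut-draining nodes were thus low except in replicate 3. mt-Nd4, a proton-pumping subunit gene of complex I, was at 220, 47.8 and 100.9 CPM in deep cervical, 20.9, 21.9 and 240.8 in ileal and 19.5, 40.1 and 13.1 in spleen libraries. mt-Nd6 was at 126.5, 30.6 and 85.7 CPM in deep cervical, 14.9, 14.5 and 120.1 in ileal and 15.3, 34.8 and 4.92 in spleen libraries, so a single library was far above the rest in the ileal node for both genes. mt-Atp8 reached 16.5 CPM in ceco-colonic replicate 3 and mt-Nd4l 11.5, and both were at 0 in at least 1 deep library.

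The 22 tRNA genes, short and without a poly(A) tail, gave 3421 counts in all 37 libraries together, and mt-Ts1 (serine) alone took 70.7% of them. The next were mt-Te (glutamate) with 189 counts and mt-Th (histidine) with 166. The 8 tRNA genes on the minus strand, mt-Ts1 among them, took 85.9% of the tRNA counts, and 52% with mt-Ts1 left out. Without the strand of counting, reads of mt-Ts1 cannot be told apart from those of antisense mt-Co1. 19 of the 22 stayed under 100 counts in total and 5 under 10. By site, mt-Te averaged 0.148 to 1.53 CPM in the deep sites and mt-Th 0.105 to 1.35 CPM, too low to compare. mt-Ts1 averaged 19.5 ± 10.5 CPM (SD, n = 3) in the deep cervical node and 0.962 ± 0.933 CPM (SD, n = 3) in spleen, as taken up again with the tests.

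In 6 deep libraries, 1 per node, mt-Nd5 was at least 3 times as high as in both other libraries of the node. They were replicate 3 of the ileal, ceco-colonic, inguinal and super cervical nodes and replicate 1 of the deep cervical and mediastinal nodes. mt-Nd5 encodes a proton-pumping subunit of complex I. Its CPM in replicates 1 to 3 was 7.13, 5.96 and 140.3 in the ileal node, 4.46, 11.1 and 186 in the ceco-colonic node and 7.58, 9.11 and 211.1 in the super cervical node. The inguinal values were 11, 20 and 80.4, the deep cervical ones 158, 15.8 and 27.6 and the mediastinal ones 81.5, 13.6 and 21.8. No spleen library stood apart, with 7.03, 12.3 and 8.16. These libraries were chosen by this gene, so its own folds over the mean of the other libraries of the node, 4.6 to 25.3, are a description.

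Other members moved with mt-Nd5 to unequal extents. In the 4 replicate 3 libraries the fold over the mean of the other 2 libraries was 4.32 to 16.1 for mt-Nd4, 3.35 to 17.4 for mt-Nd6 and 2.3 to 10.6 for mt-Nd2. Without the strand of counting, reads of mt-Nd6 cannot be told apart from those of antisense mt-Nd5. Several genes of the other complexes were higher too, at 3.84 to 13 for mt-Atp8, 2.01 to 15.5 for mt-Atp6, 1.44 to 8.36 for mt-Co3 and 1.06 to 9.93 for mt-Cytb. mt-Co1 was at 4.28, 4.39 and 3.64 in ceco-colonic, ileal and super cervical replicate 3, but at 0.772 in inguinal replicate 3. The fold was 0.707 to 1.6 for mt-Co2, 0.461 to 1.91 for mt-Rnr2 and 0.518 to 2.13 for mt-Rnr1. The rRNAs and mt-Co2 thus lay at 0.461 to 2.13 times the mean of the other libraries in these 4 nodes. Both rRNAs were below that mean only in inguinal replicate 3. As a share of the 13 mRNAs, complex I took 57.9% in ileal replicate 3 and 38.3% and 35.9% in the other ileal libraries, and 59.4% in ceco-colonic replicate 3 against 35% and 40.4%.

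Of 6308 genes with a mean of at least 16 CPM, 4 exceeded both other libraries more than 2 times in all 4 of the replicate 3 libraries: mt-Nd2, mt-Nd4, mt-Nd5 and mt-Nd6. mt-Nd5 passed through the choice of the libraries. Members can also have passed the floor through the high libraries themselves: in ceco-colonic replicate 1 mt-Nd2 was at 5.43 and mt-Nd6 at 8.15 CPM. Members come from shared long transcripts, so the count is a description. At 1.5 times there were 8 genes, of which mt-Nd1 and mt-Atp6 were the further members and Ltbp1 and Asgr1 the others. In the 2 replicate 1 libraries the rise was narrower: mt-Nd4 was at 0.968 and mt-Nd6 at 1.12 times the others in mediastinal replicate 1, and at 2.96 and 2.17 times in deep cervical replicate 1. Total counts of the 6 libraries lay below, within or above those of the others, from 2798894 in ceco-colonic replicate 3 to 54339352 in mediastinal replicate 1. The labels name no batch that these libraries share, and a cause was not tested.

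**Figure D3:**
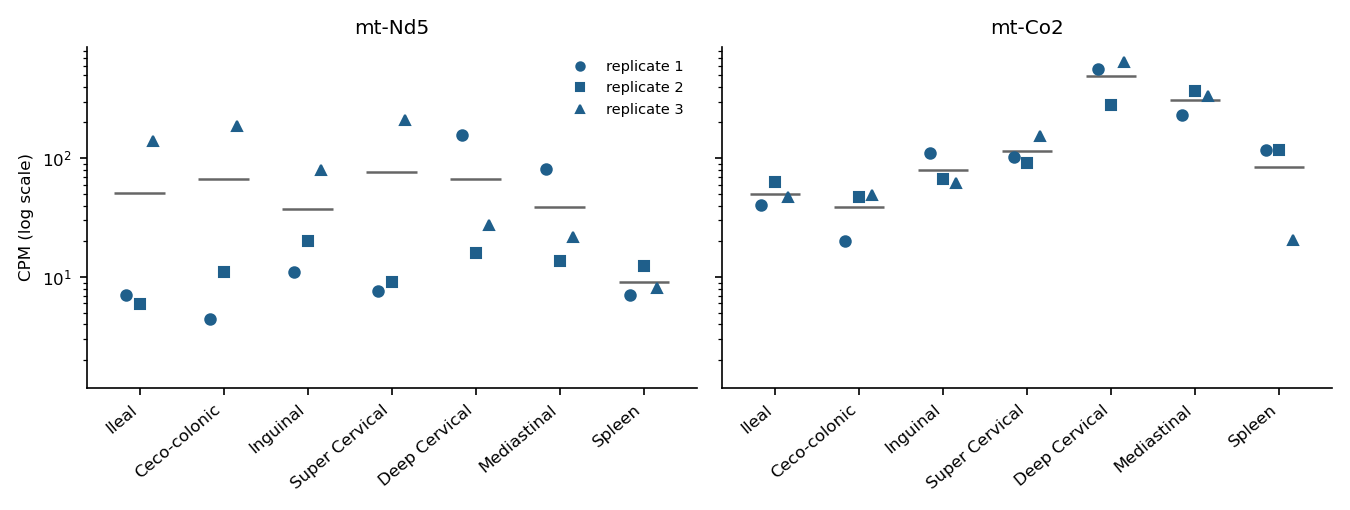
CPM of mt-Nd5 (left) and mt-Co2 (right) in the 21 deep libraries by site, on a shared log axis; symbols mark the replicate number and bars the site mean. One library per node is far above the other 2 for mt-Nd5, from 80.4 to 211.1 CPM, whereas mt-Co2 in the same libraries lies near its neighbours.

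The members were then compared between sites with edgeR's quasi-likelihood test, with p-values adjusted by Benjamini-Hochberg over all genes tested and a threshold of 0.05. In the fit of the deep libraries 17 of the 37 members passed the filter on low counts: 13 mRNAs, both rRNAs, mt-Ts1 and mt-Th. Asking for any difference among the 6 deep nodes called 6 of the 17, while 60.9% of all genes tested were called. These were mt-Co2 (adjusted p = 3.5e-05), mt-Rnr2 (5.0e-04), mt-Rnr1 (0.0037), mt-Ts1 (0.016), mt-Nd3 (0.018) and mt-Co1 (0.026). The share of members called lay below the background.

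mt-Co2 carried the clearest pattern. Its CPM in replicates 1 to 3 was 565, 280.5 and 639.7 in deep cervical, 229.4, 367 and 334 in mediastinal and 102.3, 91.3 and 155 in super cervical nodes. It was 109.8, 66.4 and 62.3 in inguinal, 40.8, 63.5 and 47.1 in ileal and 20, 47.1 and 49 in ceco-colonic nodes. Deep cervical and mediastinal libraries lay above all others without overlap, except that they overlapped each other, and ileal and ceco-colonic libraries overlapped at the low end.

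The rRNAs were highest in the deep cervical node as well. mt-Rnr2 was at 731, 347 and 437 CPM there, at 229, 161 and 144 in mediastinal and at 53.5, 39.3 and 87.5 in ileal libraries. mt-Rnr1 was at 162, 74.3 and 153 CPM in deep cervical and 16.7, 17.3 and 31.9 in ileal libraries, again without overlap between these nodes. The call on mt-Nd3 involves the ceco-colonic libraries in which the copy held its counts, but with copies merged into their genes mt-Nd3 was still among the 6 called. Without the 6 libraries that stand apart, which were chosen on a member, 15 of the 16 members tested were called, where 57.5% of all genes in that fit were. The calls on mt-Co1 and mt-Nd3 were lost without deep cervical replicate 1 (adjusted p = 0.13 and 0.07), and those on mt-Co1 and mt-Ts1 without deep cervical replicate 3 (0.096 and 0.15).

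The ileal node drains the small intestine and was set against the 4 deep nodes whose titles name no digestive organ: inguinal, super cervical, deep cervical and mediastinal. 2 of 17 members were called, both lower in the ileal node, where 3.34% of all genes were called (1.52% lower and 1.82% higher). mt-Co2 was at 40.8, 63.5 and 47.1 CPM in ileal libraries and at 62.3 to 639.7 CPM (median 192.1) in the 12 others, so the groups overlapped through ileal replicate 2 and inguinal replicate 3. Its log2 fold change was -2.08 ± 0.47 (SE, adjusted p = 0.0082). mt-Rnr2 was at 53.5, 39.3 and 87.5 CPM against 65.8 to 731 (median 167), a log2 fold change of -1.73 ± 0.45 (adjusted p = 0.027).

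The remaining 15 members did not pass. Over the 17 the median log2 fold change was -0.55 and over all genes -0.01, with 15 of 17 and 8692 of 16878 below 0. mt-Co1 came next, at -1.78 ± 0.60 (adjusted p = 0.14), and mt-Cytb had -1.67 ± 0.82 (adjusted p = 0.42). Neither call was made without ileal replicate 1 or without ileal replicate 2, nor in a fit of all 36 libraries. Without the libraries that stand apart 7 of 16 members were called, all lower in the ileal node, where 1.16% of all genes were called. Among the 7 were mt-Cytb at -3.61 ± 0.53 and mt-Co1 at -2.98 ± 0.53, but mt-Co2 was not called. The libraries left out were chosen on a member, mt-Nd5. They include ileal replicate 3, with mt-Cytb at 39.9 CPM against 4.62 and 4.66 in replicates 1 and 2. The calls of that fit are therefore a description and no support for a lower level.

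Against the ceco-colonic node, the other digestive node among the deep sites, no member was called in the ileal node by edgeR. 3 of 17 had an unadjusted p under 0.05, and DESeq2 called 1. Over all genes 0.474% were called (0.367% higher and 0.107% lower), and the higher ones made up 77.5% of the calls, 92.5% when scaled by library totals, 43.7% without the filter on low counts and 50% (3 against 3) without the libraries that stand apart. The median log2 fold change of the members was -0.86, with 16 of 17 below 0. That of all genes was 0.08 (0.59 when scaled by library totals), with 7707 of 16878 below 0. Members come from shared long transcripts and are not separate observations. The mitochondrial share of ceco-colonic replicate 3 was 0.188%, against 0.0194% and 0.0383% in replicates 1 and 2. The exception among the 17, mt-Nd3, had its ceco-colonic counts assigned to the nuclear copy: the pair had 3.01, 3.51 and 17.4 CPM in ileal and 1.97, 4.03 and 13.2 CPM in ceco-colonic libraries, which overlapped.

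**Figure D4:**
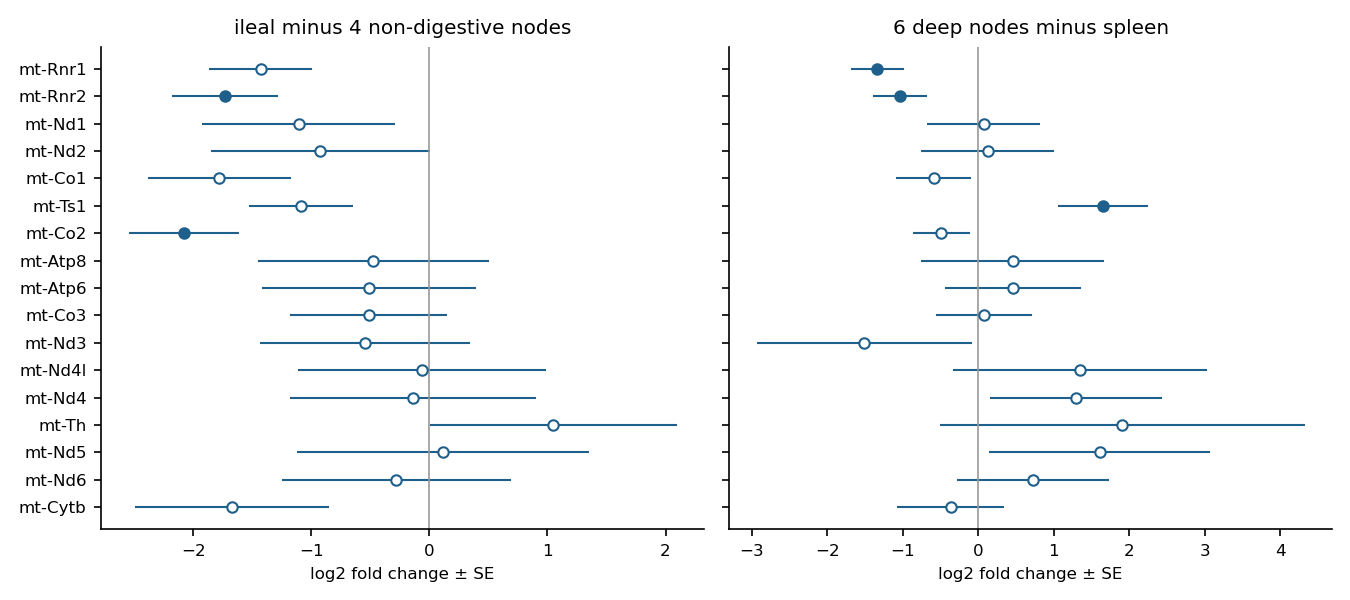
Log2 fold change with its standard error (bars) for the 17 members tested in 2 comparisons of the deep libraries, in the order of the genes along mitochondrial DNA; filled points have an adjusted p under 0.05 by edgeR. mt-Rnr2 (-1.73) and mt-Co2 (-2.08) are filled on the left, and mt-Rnr1 (-1.34), mt-Rnr2 (-1.04) and mt-Ts1 (1.65) on the right.

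The 6 deep nodes were compared with spleen, an organ that filters blood. In this comparison 3 of 17 members were called, 1 higher and 2 lower in the nodes, where 61.5% of all genes were called (34.4% higher and 27.1% lower). Of all calls 55.9% were higher, and 78.6% when scaled by library totals. mt-Ts1 was at 1.86, 1.02 and 0 CPM in spleen and at 2.9 to 30.8 CPM (median 6.71) in the 18 node libraries. There was no overlap on plain totals, but the spleen values rest on 4.54, 9.82 and 0 counts. The TMM factors of the test were 0.51 in spleen replicate 1 and 1.29 in ileal replicate 1, and with them the groups overlapped. Its log2 fold change was 1.65 ± 0.60 (adjusted p = 0.019), and the call was lost without spleen replicate 2 (adjusted p = 0.15). mt-Rnr1 had a log2 fold change of -1.34 ± 0.35 (adjusted p = 0.0023) and mt-Rnr2 one of -1.04 ± 0.36 (adjusted p = 0.014).

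The rRNA calls depended on scaling. In CPM of plain totals mt-Rnr1 was at 73.4, 36.8 and 67 in spleen and 16.7 to 162 (median 46.1) in nodes, which overlap. Scaled by library totals, the log2 fold changes were -0.42 for mt-Rnr1 (adjusted p = 0.31) and -0.14 for mt-Rnr2 (adjusted p = 0.76), and the median over all genes moved from 0.35 to 1.29. Both calls were also lost without spleen replicate 1 (adjusted p = 0.10 and 0.29). Without the libraries that stand apart, which were chosen on a member, 10 of 16 members were called, where 58.4% of all genes were. Of these members 9 were lower in the nodes, which is a description only. The median log2 fold change of the 17 members was 0.12.

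Nuclear genes for mitochondrial proteins were counted in the same comparison. Over all genes 34.4% were called higher and 27.1% lower in the nodes, with a median log2 fold change of 0.35. Of 86 nuclear respiratory chain subunit genes tested (94 in the list), 70 were higher and 1 lower in the nodes, with a median log2 fold change of 2.41. The complex I subunit genes Ndufa1 (3.8 ± 0.42, adjusted p = 6.9e-08), Ndufa13 (3.13 ± 0.36, 1.3e-07) and Ndufa9 (3.85 ± 0.45, 1.5e-07) led by p. Of 78 genes for mitochondrial ribosomal proteins, 60 were higher and 3 lower (median 1.62), led by Mrps6 (4.39 ± 0.59, adjusted p = 1.2e-06), and of 36 genes for mitochondrial DNA and RNA machinery 23 were higher and 2 lower (median 1.39). Polrmt, the mitochondrial RNA polymerase, was higher at 3.16 ± 0.54 (adjusted p = 2.6e-05) and Tfb1m, a methyltransferase of the 12S rRNA, lower at -1.73 ± 0.24 (adjusted p = 2.2e-06). The difference between the lists and the members was not tested. The erythroid sum given above, 6096 to 46936 CPM in spleen, was 144.4 to 7609 CPM in the deep nodes. Malat1, a nuclear RNA, was at 72251 to 115741 CPM in spleen and 3195 to 156754 CPM in the deep nodes. The part of either in these counts was not tested.

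In the ileal comparison with the 4 other nodes the nuclear lists moved little. 3 of 86 respiratory chain genes (3.49%) were called, near the 3.34% of all genes. All 3 were lower: Cox7a1 (-3.28 ± 0.44, adjusted p = 3.0e-05), Cox6a2 (-2.75 ± 0.43, 2.3e-04) and Cox8b (-2.32 ± 0.45, 0.0023). These encode complex IV subunits known from heart, skeletal muscle or brown fat. Cox7a1 and Cox8b are themselves among the brown fat genes summed above, so that sum is no separate evidence on them. The brown fat sum was high in deep cervical and mediastinal libraries, and the striated muscle sum in deep cervical ones. No heart genes were checked, and the part of these tissues in the 3 calls was not tested. No gene of the other 2 nuclear lists was called, by edgeR, and 1 of each had an unadjusted p under 0.05. Against the ceco-colonic node edgeR called no gene of the 3 lists. An unadjusted p under 0.05 was found for 11 of 86, 7 of 78 and 2 of 36, and for 2534 of all 16878 genes. Scaled by library totals or by DESeq2's size factors 1 respiratory chain gene was called, and 2 without the filter on low counts. Among the 6 deep nodes 55 of 86, 35 of 78 and 15 of 36 genes of the 3 lists were called (64%, 44.9% and 41.7%), where 60.9% of all genes were.

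In a fit of all 36 pull-down libraries the 3 small-intestinal nodes (duodenal, jejunal and ileal) were compared with 5 nodes without a digestive organ in the title (the 4 above and iliac). Here 9 of 16 members tested were called, all lower in the small-intestinal nodes, where 27% of all genes were called (21.7% lower and 5.28% higher). The median log2 fold change was -2.04 over the members and -0.91 over all genes (-1.12 when scaled by library totals). Depth differed between the groups, with a median total of 495246 counts in the 9 small-intestinal and 3520593 in the 15 other libraries, and cannot be told apart from site.

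Among the called genes mt-Cytb was at 3.86 to 39.9 CPM (median 5.13) in small-intestinal and 14.1 to 161 CPM (median 38.3) in the other libraries, a log2 fold change of -2.14 ± 0.55 (adjusted p = 0.0064). mt-Co1 was at 0 to 40.6 CPM (median 9.32) against 15.8 to 183 (median 51.4), or -1.88 ± 0.42 (adjusted p = 0.0024). mt-Nd1, which encodes a core membrane subunit of complex I, had -1.75 ± 0.50 (adjusted p = 0.011). The groups overlapped for all 3 genes, and ileal replicate 3, a library that stands apart, was the highest small-intestinal one for each.

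For mt-Co2, mt-Co3 and mt-Atp6 the fold changes were enlarged by the copies. They were -5.61 ± 0.93, -2.94 ± 0.70 and -7.41 ± 2.65 as deposited, and -2.16 ± 0.45 (adjusted p = 0.0018), -2.01 ± 0.50 (0.0053) and -1.62 ± 0.64 (0.059) with the copies merged. mt-Ts1 (-3.62 ± 1.18, adjusted p = 0.021), mt-Nd4 (-1.94 ± 0.67, 0.032) and mt-Nd2 (-1.59 ± 0.59, 0.045) made up the 9. The calls on mt-Nd2, mt-Nd4, mt-Atp6 and mt-Ts1 were each lost without at least 1 library, whereas mt-Co1, mt-Co2, mt-Co3, mt-Cytb and mt-Nd1 were called in every fit that left 1 library out.

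The rRNAs did not pass here. mt-Rnr2 had a log2 fold change of 0.11 ± 0.39 (adjusted p = 0.91), with 39.3 to 1654 CPM (median 206) in small-intestinal and 65.8 to 1285 CPM (median 185) in the other libraries. mt-Rnr1 had 0.39 ± 0.39 (adjusted p = 0.48). Where 21.7% of all genes were called lower, 75 of 83 nuclear respiratory chain genes were called, all lower (median -1.53). So were 36 of 78 mitochondrial ribosomal protein genes (median -1.31) and 10 of 36 machinery genes (median -1.52).

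Among the 4 shallow nodes 7 members could be tested: both rRNAs, mt-Nd1, mt-Nd2, mt-Co3, mt-Nd4 and mt-Cytb. None was called by edgeR or DESeq2, 1 had an unadjusted p under 0.05 (mt-Co3, adjusted p = 0.084), and 11.5% of the 1622 genes tested were called. At this depth 3 counts correspond to 3.27 to 13.5 CPM, so differences in most mitochondrial mRNAs were not detectable.

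The isotype control shows what the procedure recovers without the antibody to the tag. It is a single library of 5002926 counts, so nothing could be tested against it, and the intervals below are exact 95% intervals that cover counting error only. Mitochondrial genes took 0.0946% of its counts (0.0919% to 0.0974%). Its mRNA share, 0.0718%, was 4.29 times the mean of the 3 jejunal libraries, and its rRNA share, 0.0224%, lay between those of jejunal replicates 1 and 2 (0.0104% and 0.0263%). With the 3 ribosomal features left out of the totals the mRNA ratio was 2.48. Malat1 was at 266090 CPM in the control and at 53763, 114450 and 27186 CPM in jejunal replicates 1 to 3, and its part in the result was not tested.

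Of the 13 mRNAs, 12 had a lower CPM in all 3 jejunal libraries than in the isotype control, on library totals and also with the copies merged. mt-Nd1 was at 11.6, 14.6 and 11.3 CPM in the pull-down and at 78.4 in the control. mt-Nd4 was at 23.1, 17.6 and 7.54 against 106.4, and mt-Co3 at 13.5, 36.4 and 45 against 120.1. The pair of mt-Atp6 and its copy was at 13.6, 14.2 and 11.3 CPM against 77.8. All of these were below the control in every jejunal library. The exception was mt-Atp8, with 3.76, 2.19 and 0 against 1.28 CPM, which rests on at most 6.4 counts per library. With the 3 ribosomal features left out of the totals, 10 of 13 mRNAs were below in all 3, mt-Nd2 and mt-Nd5 being the further exceptions.

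By a rule of at least 2-fold in all 3 jejunal libraries, among genes with a mean of at least 20 CPM over the 4 libraries, 4 of 9 members were lower (mt-Nd1, mt-Co3, mt-Nd4 and mt-Nd6), none was higher and 5 were neither. Most members considered passed this floor through the high value of the control itself, so the count is a description. Of all 2668 genes considered, 14.1% were lower and 8.66% higher. The rRNAs did not follow the mRNAs. mt-Rnr2 was at 75.2, 206 and 1265 CPM in the jejunal libraries and at 186.4 in the control, and mt-Rnr1 at 28.9, 56.5 and 380 against 37.5. Jejunal replicate 3, the shallowest of the 3, was far above the control for both, and replicate 1 below it.

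Set against the nuclear genes of the same complexes, the mitochondrial mRNAs of the control stood apart from every pull-down library. The control had 133.6 mitochondrial mRNA counts per 100 counts of the nuclear respiratory chain genes, which made up 0.0537% of its counts. The deep libraries had 0.49 to 8.53 (median 3.12), with nuclear shares of 0.292% to 5.67%. The shallow libraries had 4.15 to 40.5 (median 12.6), with nuclear shares of 0.021% to 0.883% (median 0.0898%). The jejunal ones had 1.82, 0.957 and 22, with nuclear shares of 0.732%, 1.97% and 0.0818%. Within the deep libraries the lowest values were those of ileal replicates 1 and 2 (0.582 and 0.664) and ceco-colonic replicate 1 (0.49). The highest were those of super cervical replicate 3 (8.53), ceco-colonic replicate 3 (7.91) and deep cervical replicate 1 (7.48), all among the libraries that stand apart. For the mitochondrial rRNAs the control had 41.7 counts per 100 nuclear respiratory chain counts, within the 16.9 to 459 of the shallow libraries.

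**Figure D5:**
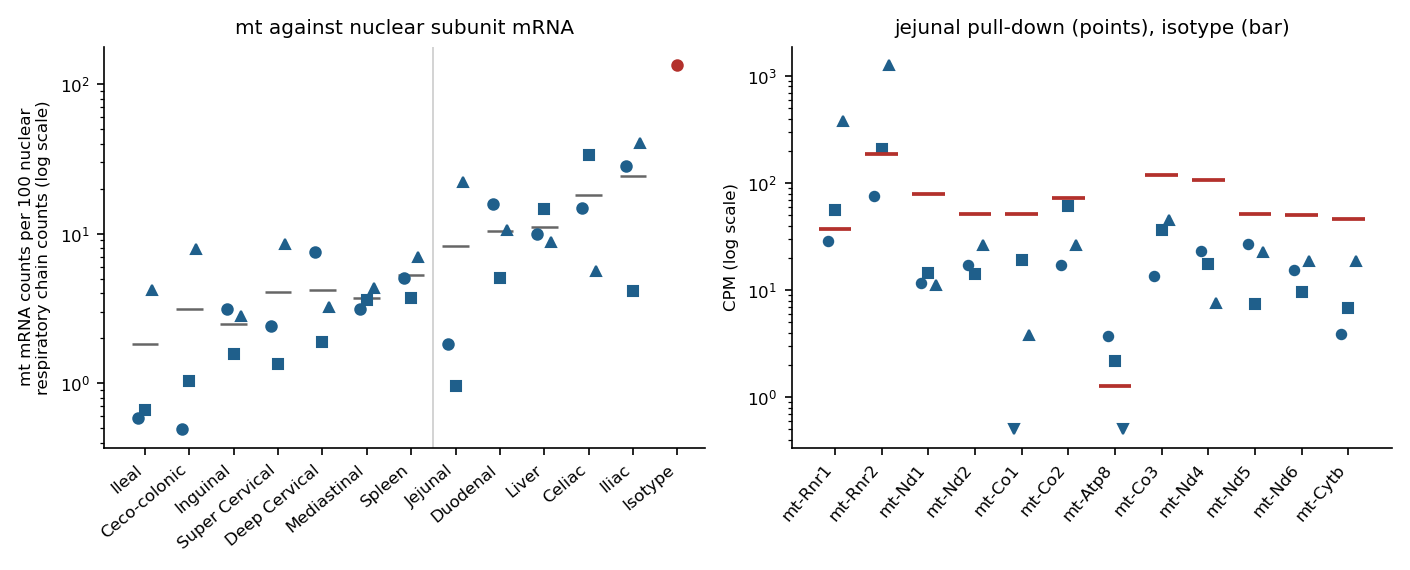
Left, mitochondrial mRNA counts per 100 counts of nuclear respiratory chain genes in each library, by site, on a log axis, with site means as bars, replicate symbols as circles, squares and triangles, and the isotype control in red at 133.6. Right, CPM of the rRNAs and of 10 mRNAs in the 3 jejunal libraries (points) and in the isotype control (red bars), on a log axis, with downward triangles at 0.5 for values under 0.5; all mRNA points except 2 of mt-Atp8 lie below the bar.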

How the data were processed

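The deposited table holds estimated counts per gene for 37 libraries. Per the submitters' processing notes they come from kallisto, with edgeR and limma also named. The notes name both GRCm39 and mm10 without a role. The share of these expected counts further than 0.001 from a whole number, among values above 0, is 99.3%, and the deposited estimates were rounded for the tests. RNA was polyadenylated, per the labels' protocols. All 37 members matched the GENCODE M21 annotation, from which lengths, positions and sequences were read, and nuclear copies (at least 99% identity over at least 95% of the copy) were found with blastn 2.17.0.

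CPM are counts per 1000000 of the plain library total. Tests used edgeR 4.0.16 (quasi-likelihood, TMM scaling, filterByExpr with a count minimum of 10) under R 4.3.3, fitted on all genes, with Benjamini-Hochberg adjustment and a threshold of 0.05. DESeq2 1.42.0 was an alternative. Only the ileal comparison with the non-digestive deep nodes was checked on simulated counts, drawn with the same spread for all genes. That check does not cover the other comparisons or the wide spread of some members. By the rule for named genes, values by library or site are given for both rRNAs, the 3 mRNAs with the highest mean CPM, mt-Nd6, mt-Atp8, mt-Nd4l, the 3 tRNAs with the highest mean CPM and up to 5 called members per contrast, and from each nuclear list at most the 3 genes with the smallest adjusted p. Other members, mt-Nd5 among them, were singled out after their values were seen. Members, lists and comparisons were chosen with earlier results of these data known. Libraries at a site share a number with other sites, but no label ties equal numbers to an animal or day.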

Additional observations from a re-analysis of the deposited data

How the results depend on the processing

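No called member changed the sign of its fold change under the alternatives run. The majority of all genes called against the ceco-colonic node changed from higher (62 against 18) to lower without the filter on low counts (222 against 286). The number of members called, given as 6, 2, 0, 3, 9 and 0 for the 6 deep nodes, ileal against 4 nodes, ileal against ceco-colonic, nodes against spleen, small-intestinal against 5 nodes and the 4 shallow nodes, moved with the filter on low counts: without it 11, 5, 1 and 5 were called in the first 4 and 2 in the shallow nodes. Scaling by library totals left 1 call against spleen and gave 2 in the shallow nodes. DESeq2 called 4 in the ileal comparison with 4 nodes and 1 in that with the ceco-colonic node, and a fit of all 36 libraries called 0 in the former. Without the libraries that stand apart, an alternative chosen after seeing the data and on a member, 15, 7 and 10 were called among the deep nodes, in the ileal comparison with 4 nodes and against spleen. Leaving out 1 library at a time gave 4 to 9, 0 to 3, 0 to 0, 1 to 3, 5 to 11 and 0 to 1. The lowest against spleen came without spleen replicate 1, and the lowest for the small-intestinal nodes without duodenal replicate 1. In the isotype comparison 10 members were lower with TMM-scaled CPM, 0 with a mean of at least 100 CPM, and 7 to 8 without 1 jejunal library. The median share over 36 libraries, 0.0708%, was 0.15% without the 3 ribosomal features in the totals. Over all genes, the ileal comparison with 4 nodes called 564, and 280 in the fit of all 36 libraries, 928 by DESeq2, 920 without the filter and 197 without the libraries that stand apart. Against the ceco-colonic node it called 80, and 6 to 580 under the alternatives. For the small-intestinal nodes it called 4398, and 1656 without the libraries that stand apart. For the shallow nodes it called 186, and 462 scaled by totals, 666 without the filter, 421 by DESeq2 and 121 with the block.

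With replicate number as a block 6, 3, 0, 3, 10 and 0 members were called. Libraries with the same number correlated at -0.37 to 0.48, and 12 of 21 correlated best with their own number, so the numbers are not treated as pairs. In the shallow libraries depth limits what can be seen, where 2 to 11 members had more than 10 counts.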
